A study of Homo sapiens with 6 samples.

Results

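MAP2K4 (mitogen-activated protein kinase kinase 4, also called MKK4) was examined on 6 arrays of human osteosarcoma cells together with 9 kinases that act beside, above or below it in the JNK and p38 stress pathways. These were the parallel kinases MAP2K7, MAP2K3 and MAP2K6, the JNK kinases MAPK8 and MAPK9, the p38 kinase MAPK14, and the upstream kinases MAP3K1, MAP3K5 and MAP3K7. MAP2K4 was chosen by its lower signal with CDK11 siRNA than with nonspecific siRNA, so this difference is given as a description with no test, and the other 9 genes were chosen as its pathway neighbours. A probe set is the group of short probes on the array that reads 1 transcript region. Of the 54675 probe sets, 23 were assigned to 8 of the 10 genes. No probe set was listed under MAP2K7 or MAPK14 in the annotation used here, and these genes were not analysed here.

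Stress-activated kinase pathways run in 3 tiers. Kinases of the MAP3K family respond to cytokines, oxidants and other stresses and phosphorylate kinases of the MAP2K family, which in turn phosphorylate the JNK and p38 kinases on a threonine and a tyrosine. MAP2K4 is known to activate JNK and can also activate p38, MAP2K7 acts on JNK, and MAP2K3 and MAP2K6 act on p38. JNK and p38 then phosphorylate transcription factors such as JUN and ATF2 and further kinases. The activity of all of these proteins is set largely by phosphorylation, which RNA arrays do not measure.

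U-2OS and KHOS are established human osteosarcoma cell lines. Each was transfected with CDK11 siRNA at 40 nM, transfected with nonspecific siRNA at 40 nM, or left untransfected, and the RNA of 3 flasks was pooled for each array. There was thus 1 array per condition and line and no replicate within a line, and a spread could be estimated only across the lines. The methods name 1 siRNA sequence against CDK11, so that an effect of losing CDK11 and another effect of that sequence cannot be told apart. In a culture, fewer cells with a transcript and less of it per cell cannot be told apart either. The values were log2 signals after gcrma, on which a difference of 1 is a doubling or halving. Between 24.8% and 25.9% of the probe sets on an array were above a signal of 100, which is 6.64 on the log2 scale. A probe set was kept when it passed this limit on at least 1 array, which left 16397 in all and 16 of the 23 here. The target RNA was lower in both lines: the brightest of 5 probe sets shared by CDK11A and CDK11B kept 16.0% of its level with nonspecific siRNA in U-2OS and 20.6% in KHOS. Of 8 osteoblast lineage markers with a probe set, COL1A1 and SPARC were above the limit on all 6 arrays and RUNX2 on the 3 of KHOS and 1 of U-2OS, while SP7, ALPL, SPP1, IBSP and COL1A2 were below it on every array. VIM and FN1 were above it on all 6. No blood or endothelial marker of the 5 tested reached it, and of 3 epithelial markers only EPCAM did, on the 3 KHOS arrays.

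MAP2K4, the kinase by which this group was chosen, had less signal after CDK11 siRNA than in either control, in both lines and by both of its probe sets. The sequence before its start is shown for that reason. The 250 bases before its annotated start lie on the plus strand of GRCh38.p14 at chr17:12020627-12020876 and were taken from the RefSeq promoter table. The capitals mark a match to the GC box GGGCGG, the only one on either strand.

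MAP2K4: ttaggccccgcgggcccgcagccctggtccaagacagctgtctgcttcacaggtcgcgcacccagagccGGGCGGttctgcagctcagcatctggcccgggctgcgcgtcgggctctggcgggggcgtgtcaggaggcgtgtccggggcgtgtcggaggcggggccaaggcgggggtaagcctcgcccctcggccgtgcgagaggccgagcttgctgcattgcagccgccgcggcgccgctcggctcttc

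The match begins 181 bases before the start. Of 35116 windows of this length in the table, 42.6% held at least 1 GC box on either strand. The MAP2K4 window was 74.0% G and C, against a median of 58.0% over all windows. It held no TATA box (TATAAA, found in 10.7% of all windows), CCAAT box (CCAAT, 32.0%), AP-1 site (TGANTCA, 6.57%) or CRE (TGACGTCA, 1.65%) on either strand. AP-1 and CRE are the motifs of JUN and ATF2, which JNK and p38 phosphorylate.

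In U-2OS, the brighter MAP2K4 probe set, 203266_s_at, had a log2 level of 7.01 with CDK11 siRNA, 8.44 with nonspecific siRNA and 9.0 in untransfected cells. In KHOS its levels were 8.20 with CDK11 siRNA, 9.54 with nonspecific siRNA and 9.93 in untransfected cells. The CDK11 siRNA array was the lowest of the 3 in each line, and the untransfected array the highest. The second probe set, 203265_s_at, had 6.71 with CDK11 siRNA, 7.70 with nonspecific siRNA and 8.23 untransfected in U-2OS. In KHOS it had 6.71, 8.12 and 8.16 on the arrays with CDK11 siRNA, with nonspecific siRNA and untransfected. With CDK11 siRNA this probe set lay just above the signal limit in both lines, where the size of a difference is less certain. The level differences between conditions of a line have no replicate spread to be set against.

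**Figure D1:**
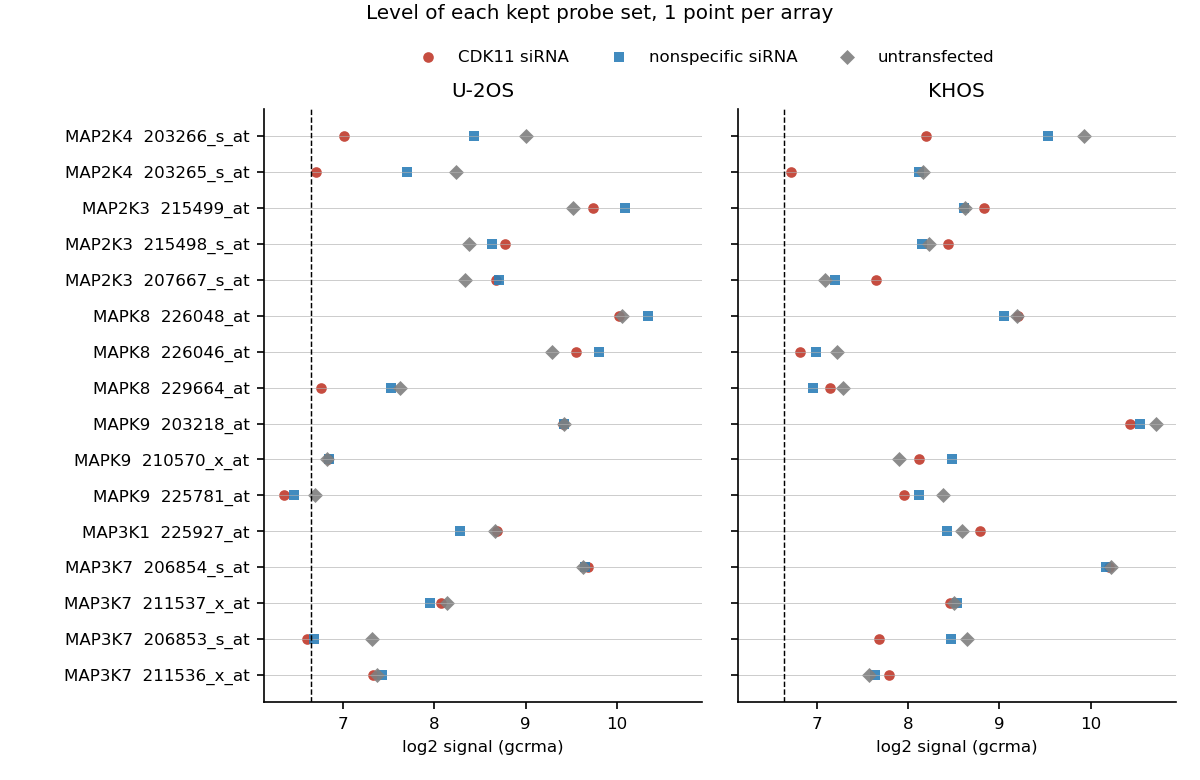
Log2 signal (x axis) of the 16 kept probe sets of MAP2K4 and its pathway kinases in U-2OS and KHOS, with 1 point per array and the signal limit of 6.64 as a dashed line. For MAP2K4 the red CDK11 siRNA point lies clearly left of the other 2 in each line, while for most other kinases the 3 points of a line lie close together.

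For the brighter MAP2K4 probe set, CDK11 siRNA minus nonspecific siRNA gave a log2 difference of -1.43 in U-2OS and -1.34 in KHOS, which left 37.1% and 39.5% of the signal. For the second it was -0.99 in U-2OS and -1.41 in KHOS, with 50.2% and 37.7% left. The differences of all kept probe sets had a mean of 0.022 and an SD of 0.365 in U-2OS, and a mean of 0.0006 and an SD of 0.449 in KHOS. On this scale the brighter probe set had a z-score of -3.98 in U-2OS and -2.98 in KHOS, and the second -2.78 in U-2OS and -3.14 in KHOS. The 3 SD bound below the mean was -1.07 in U-2OS and -1.35 in KHOS, so that a different MAP2K4 probe set passed it in each line and the other lay just short of it. Ranked from the lowest difference of the 16397, the brighter probe set was 45th in U-2OS and 125th in KHOS, and the second 190th in U-2OS and 94th in KHOS. In U-2OS 0.89% of all kept probe sets were below the lower bound and 0.976% above the upper one, and in KHOS 0.732% below and 0.653% above. MAP2K4 gave 1 of the 16 probe sets below the bound in each line, and 0 of the 16 were above it. The contrast is the one MAP2K4 was chosen by, and nothing is read from these counts.

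Against untransfected cells the MAP2K4 differences were larger in each of the 4 readings. The brighter probe set had -1.99 in U-2OS and -1.73 in KHOS, or 25.1% and 30.1% of the untransfected signal, and the second had -1.53 and -1.45, or 34.7% and 36.6%. The z-scores were -4.64 and -3.54 in U-2OS for the brighter and the second probe set, and -3.23 and -2.70 in KHOS. Both probe sets were therefore below the 3 SD bound in U-2OS, where 0.951% of all kept probe sets were, and 1 in KHOS, where 0.604% were. This comparison shares the CDK11 siRNA arrays with the one above and adds no independent measure of them.

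None of the other kinases had a kept probe set beyond 3 SD in either line and against either control. The 14 kept probe sets of MAP2K3, MAPK8, MAPK9, MAP3K1 and MAP3K7 had differences of CDK11 siRNA and nonspecific siRNA between -0.77 and 0.41 in U-2OS, with a median of -0.05, and between -0.79 and 0.45 in KHOS, with a median of 0.09. The median of all kept probe sets was 0.014 in U-2OS and 0.010 in KHOS. The lower and upper quartiles of all kept probe sets were -0.14 and 0.19 in U-2OS, and -0.22 and 0.23 in KHOS.

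**Figure D2:**
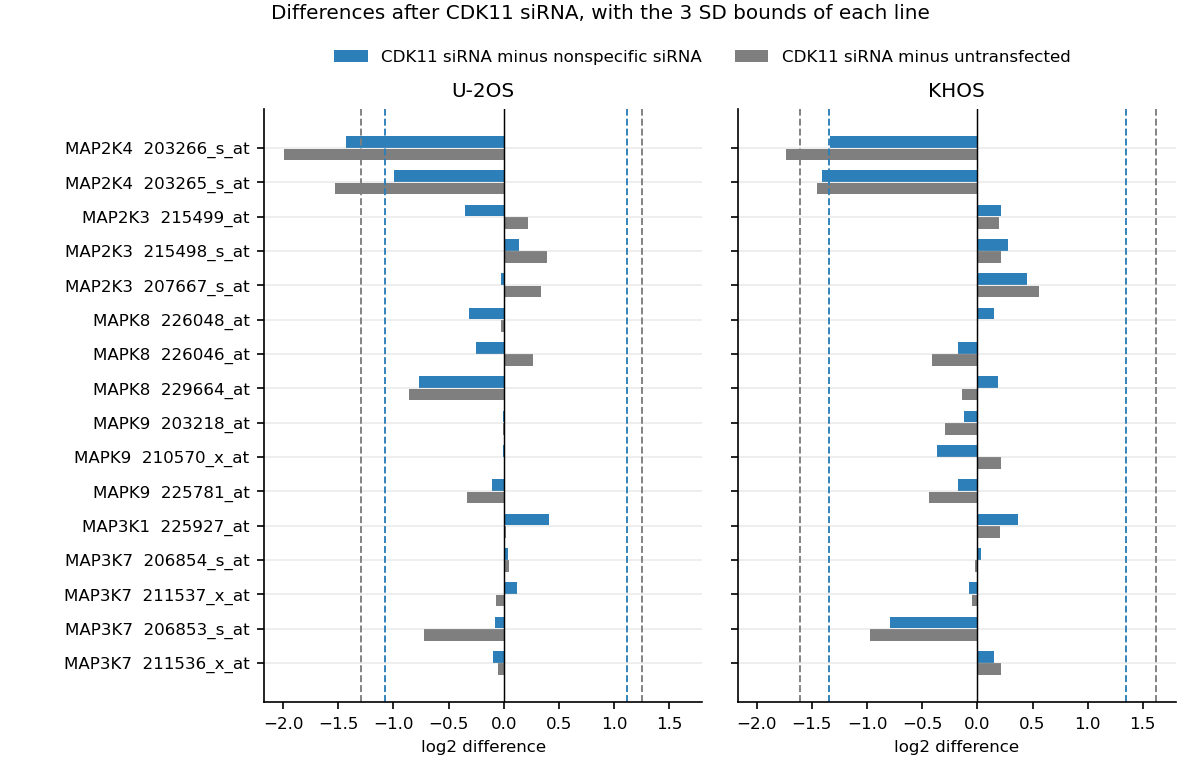
Log2 differences (x axis) of CDK11 siRNA and nonspecific siRNA (blue) and of CDK11 siRNA and untransfected (grey) for the 16 kept probe sets in U-2OS and KHOS, with dashed lines at the 3 SD bounds of each comparison. Only MAP2K4 bars reach the bounds, and the longest bars of the other kinases are those against untransfected cells for 1 probe set of MAPK8 in U-2OS (-0.86) and 1 of MAP3K7 in KHOS (-0.97).

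MAP2K3, which activates p38, had higher signals with CDK11 siRNA than with nonspecific siRNA in KHOS by all 3 of its probe sets, with differences between 0.22 and 0.45. In U-2OS they were -0.35, 0.14 and -0.03. Against untransfected cells all 3 were higher in both lines, by 0.22 to 0.39 in U-2OS and by 0.20 to 0.56 in KHOS. The largest of these, 207667_s_at, had 7.65 with CDK11 siRNA, 7.20 with nonspecific siRNA and 7.09 untransfected in KHOS. Its z-score against untransfected cells was 1.03, so it was near 1 SD of all probe sets. The 3 probe sets were also assigned to LOC100996792, which RefSeq lists as a pseudogene, and signal from the 2 loci cannot be told apart. MAP2K6, the other p38 kinase kinase, was near background, with 2 probe sets between 2.31 and 3.51 on the 6 arrays.

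Of the JNK kinases, MAPK8, which encodes JNK1, had 3 kept probe sets. The brightest, 226048_at, had differences of -0.32 in U-2OS and 0.15 in KHOS against nonspecific siRNA, and -0.03 and 0.01 against untransfected cells. The probe set 229664_at had 6.76 with CDK11 siRNA, 7.53 with nonspecific siRNA and 7.62 untransfected in U-2OS, a difference of -0.77 with a z-score of -2.15. In KHOS the same probe set had 7.15, 6.96 and 7.29 under the same conditions, and a difference of 0.19. In U-2OS the third probe set, 226046_at, had -0.25 against nonspecific siRNA and 0.27 against untransfected cells, and in KHOS -0.17 and -0.41. All 3 were thus below 0 in U-2OS against nonspecific siRNA, and they differed in sign against untransfected cells. The 2 remaining MAPK8 probe sets were below the signal limit, with levels between 2.49 and 4.39. MAPK9, which encodes JNK2, had differences against nonspecific siRNA between -0.11 and -0.003 in U-2OS and between -0.36 and -0.12 in KHOS by its 3 probe sets. Its brightest, 203218_at, held 9.41, 9.42 and 9.42 in U-2OS with CDK11 siRNA, with nonspecific siRNA and untransfected, and 10.43, 10.55 and 10.72 in KHOS.

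Among the upstream kinases, MAP3K1 (MEKK1), which phosphorylates MAP2K4 and MAP2K7, had a higher level after CDK11 than after nonspecific siRNA at its only kept probe set, by 0.41 in U-2OS and 0.37 in KHOS. Its levels were 8.69 with CDK11 siRNA, 8.28 with nonspecific siRNA and 8.67 untransfected in U-2OS, and 8.79, 8.42 and 8.59 in KHOS. The nonspecific siRNA array was the lowest in each line, and against untransfected cells the difference was 0.02 in U-2OS and 0.20 in KHOS. The z-scores of 1.06 and 0.82 against nonspecific siRNA were near 1 SD. The other MAP3K1 probe set was near background, between 2.89 and 3.85. MAP3K5 (ASK1), which responds to oxidative stress, was below the limit on all arrays, with its brighter probe set at 6.01, 5.36 and 5.97 in U-2OS on the arrays with CDK11 siRNA, with nonspecific siRNA and untransfected, and at 6.17, 6.09 and 6.50 in KHOS. Its second probe set lay between 3.04 and 3.63.

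MAP3K7 (TAK1), which relays signals of cytokine receptors to both pathways, gave different readings by its 4 kept probe sets. For 3 of them the differences against nonspecific siRNA lay between -0.10 and 0.12 in U-2OS and between -0.08 and 0.15 in KHOS. The brightest of these, 206854_s_at, had 0.03 in each line. The fourth, 206853_s_at, had 7.68 with CDK11 siRNA, 8.47 with nonspecific siRNA and 8.65 untransfected in KHOS, a difference of -0.79, or 57.8% of the level with nonspecific siRNA. In U-2OS it had 6.60, 6.68 and 7.32 under these conditions, with a difference of -0.08 against nonspecific siRNA and -0.72 against untransfected cells. Which transcripts of the gene each probe set reads was not examined here.

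Nonspecific siRNA against untransfected cells asks how far the transfection itself moved these genes, with the 2 lines as the replicates. In limma with line and transfection as terms, 0 of 16397 probe sets passed an adjusted p of 0.05, or 0%, and 1468 had an unadjusted p under 0.05. When limma's prior variance was allowed to depend on the signal level, 5 passed, all lower with nonspecific siRNA and none of these kinases. The brighter MAP2K4 probe set was the only 1 of the 16 with an unadjusted p under 0.05. Its nonspecific siRNA minus untransfected log2 difference was -0.56 in U-2OS and -0.39 in KHOS, with a fitted difference of -0.48 ± 0.13 (SE) and an adjusted p of 0.484. The second MAP2K4 probe set had -0.53 in U-2OS and -0.04 in KHOS, with a fitted -0.29 ± 0.17 (SE) and an adjusted p of 0.636. Over the 16 probe sets the within-line differences ran between -0.65, for the fourth MAP3K7 probe set in U-2OS, and 0.58, for 210570_x_at of MAPK9 in KHOS. The nonspecific siRNA arrays also belong to the contrast that MAP2K4 was chosen by.

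The lines differed in the level of most of these kinases, which the choice of genes did not use. With transfection as a block, limma called 4 of the 16 probe sets higher in U-2OS than in KHOS and 7 lower at an adjusted p under 0.05, while of all 16397 kept probe sets 32.6% were higher and 39.6% lower. With each array centred on its median, the balance over all probe sets turned, to 6238 higher and 5664 lower, and 5 of the 16 were higher and 7 lower. The share of these kinases called was thus close to that of all probe sets. For 11 of the 16 the 3 arrays of U-2OS did not overlap those of KHOS, against 74.0% of all kept probe sets. The spread behind these p-values is how far the line difference varied over the 3 conditions, with line-specific responses to the siRNAs counted in it. It is neither a spread between replicate cultures, of which there were none, nor a spread between osteosarcomas. Of the 3 epithelial markers, EPCAM was at 5.15 to 5.89 in U-2OS and at 8.81 to 9.0 in KHOS, while CDH1 and KRT19 were near background on all 6 arrays, and their part in the differences between the lines was not tested.

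The JNK kinases differed between the lines in opposite directions. MAPK8 was higher in U-2OS by 2 of its 3 kept probe sets. Its probe set 226046_at had 9.55, 9.80 and 9.28 in U-2OS with CDK11 siRNA, with nonspecific siRNA and untransfected, against 6.82, 6.99 and 7.23 in KHOS, a fitted log2 difference of 2.54 ± 0.18 (SE) with an adjusted p of 0.000317 in limma. For 226048_at it was 0.99 ± 0.14 (adjusted p 0.00238), and for 229664_at 0.17 ± 0.21 (adjusted p 0.496), where the arrays of the lines overlapped. The size of the MAPK8 difference therefore depended on the probe set. MAPK9 was lower in U-2OS by all 3 probe sets, with fitted differences of -1.15 ± 0.11, -1.34 ± 0.14 and -1.65 ± 0.10 (SE) and adjusted p-values of 0.000692, 0.00103 and 0.000174 in limma. The last of these, 225781_at, had 6.35, 6.46 and 6.69 in U-2OS and 7.95, 8.12 and 8.39 in KHOS on the arrays with CDK11 siRNA, with nonspecific siRNA and untransfected. In U-2OS 2 of these values were below the signal limit and the other just above it, so the size of this difference is less certain.

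**Figure D3:**
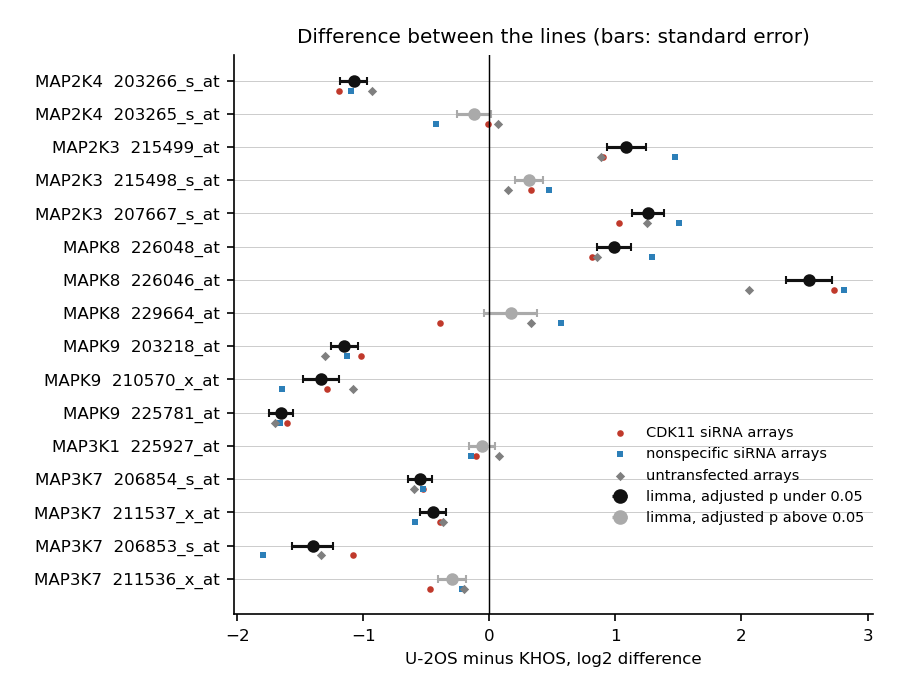
Log2 difference of U-2OS and KHOS (x axis) for the 16 kept probe sets, as the limma estimate with its standard error (large points, black where the adjusted p is under 0.05 and grey where it is not) and for each transfection (small points). MAPK8 lies to the right, up to 2.54, and MAPK9 to the left, down to -1.65.

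MAP2K4 was lower in U-2OS by its brighter probe set, with a fitted difference of -1.07 ± 0.11 (SE) and an adjusted p of 0.000806 in limma, and differences between -1.19 and -0.93 under the 3 conditions. The arrays of the lines overlapped when conditions were pooled, since KHOS with CDK11 siRNA was below untransfected U-2OS. By the second it was -0.12 ± 0.14, with an adjusted p of 0.463 and differences between -0.42 and 0.07. The difference in MAP2K4 level between the lines thus rested on the probe set. Without the transfection block the adjusted p of the brighter probe set was 0.172. MAP2K3 was higher in U-2OS by 2 of 3 probe sets, with 1.09 ± 0.16 for 215499_at, 1.26 ± 0.13 for 207667_s_at and 0.32 ± 0.11 (SE) for 215498_s_at, at adjusted p-values of 0.00278, 0.000912 and 0.0528 in limma. MAP3K7 was lower in U-2OS by 3 of 4 probe sets at an adjusted p under 0.05, with estimates between -1.40 and -0.45. The -1.40 was that of 206853_s_at, which lay at 6.60 and 6.68 on 2 of the 3 U-2OS arrays, below and just above the signal limit, so its size is less certain. The remaining one, 211536_x_at, had -0.30 ± 0.11 (SE) and an adjusted p of 0.0599, and without the nonspecific siRNA arrays that of 211537_x_at was 0.0882 in place of 0.0142. MAP3K1 had -0.06 ± 0.10 (SE), an adjusted p of 0.644, and overlapping arrays. A p above the threshold does not show equal levels, and a difference larger than the standard error may have been missed.

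Beside these kinases, 78 further genes of the pathways were listed by role, and 55 had a kept probe set of their own. At the brightest probe set of each, the median of CDK11 siRNA minus nonspecific siRNA was 0.03 in U-2OS and 0.13 in KHOS, where the medians of all kept probe sets were those given above. Of the 99 kept probe sets of the 55 genes, 1 was beyond 3 SD in each line. Over all kept probe sets 0.89% were beyond it on the lower side and 0.976% on the higher side in U-2OS, and 0.732% and 0.653% in KHOS, so the count was no higher than the general rate. In U-2OS this was MEF2C, a transcription factor that p38 phosphorylates, with 2.62 with CDK11 siRNA and 3.91 with nonspecific siRNA, both near background. Its probe set was kept through KHOS, where it had 7.91 with CDK11 siRNA, 7.50 with nonspecific siRNA and a difference of 0.41. In KHOS it was the dimmer of 2 kept probe sets of ARAF, a kinase of the ERK pathway. It had 7.92 with CDK11 siRNA and 6.32 with nonspecific siRNA, a difference of 1.60. The nonspecific siRNA level was below the signal limit and the lowest of the 3 KHOS arrays, with 7.06 in untransfected cells. The brighter ARAF probe set had -0.01 in U-2OS and 0.05 in KHOS.

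**Figure D4:**
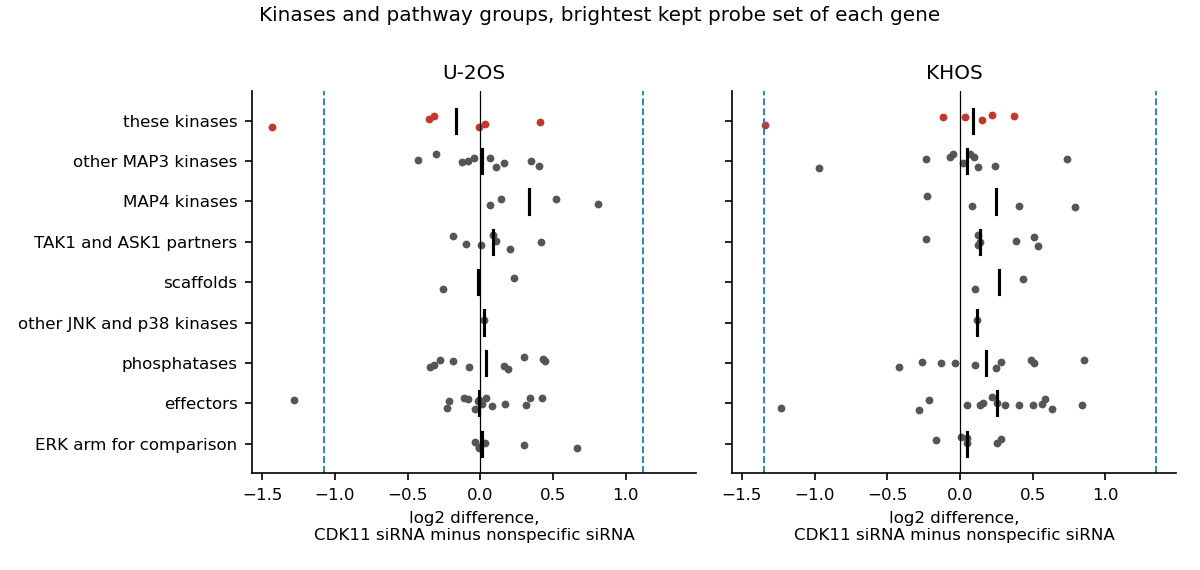
CDK11 siRNA minus nonspecific siRNA on the log2 scale (x axis) in U-2OS and KHOS, with 1 point per gene at its brightest kept probe set, a black bar at the median of each group and dashed lines at the 3 SD bounds. MAP2K4 is the red point farthest to the left in both lines, and the 55 further genes lie between -1.28 and 0.81 in U-2OS and between -1.23 and 0.85 in KHOS.

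Among 10 kept genes of other MAP3 kinases, the median was 0.01 in U-2OS and 0.05 in KHOS. MAP3K21 had -0.43 in U-2OS and -0.97 in KHOS, MAP3K9 had 0.11 and 0.73, and MAP3K2, an activator of JNK and ERK5, had 0.35 and 0.24. MAP3K9 was below the signal limit on all 3 KHOS arrays, and MAP3K21 with CDK11 siRNA in both lines, so these sizes are less certain. The 4 MAP4 kinases, which act above the MAP3 kinases, had medians of 0.33 in U-2OS and 0.25 in KHOS. Of these, TNIK had 0.81 in U-2OS and 0.79 in KHOS, MAP4K5 had 0.52 and 0.41, and MAP4K4 had 0.07 and 0.09. TNIK was below the limit on 5 of the 6 arrays, and in U-2OS its untransfected level of 7.23 was above the 6.45 with CDK11 siRNA. The 7 partners of TAK1 and ASK1 had medians of 0.09 and 0.14. They included GADD45B with 0.42 and 0.38 and GADD45A with 0.11 and 0.54, stress-induced genes whose proteins bind MAP3 kinases, and the ubiquitin ligase TRAF6 with 0.006 and 0.51. The JNK scaffold SPAG9 had 0.23 in U-2OS and 0.43 in KHOS, the scaffold SH3RF1 had -0.26 and 0.10, and the p38 kinase MAPK12 had 0.03 and 0.12. MAPK12 was below the limit on all 3 KHOS arrays, and TRAF6 on the untransfected KHOS array. None of these differences was beyond 3 SD.

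The 10 listed phosphatases had medians of 0.04 in U-2OS and 0.18 in KHOS. DUSP8 had 0.45 in U-2OS and 0.85 in KHOS, PPM1A had 0.43 and 0.51, and DUSP10 had 0.30 and 0.49. DUSP8 reached the limit on only 1 array, that of U-2OS with CDK11 siRNA, and in KHOS it lay at 6.13 with CDK11 siRNA and 5.28 with nonspecific siRNA. DUSP10, which removes phosphate from JNK and p38, had nonspecific siRNA minus untransfected differences of 0.53 in U-2OS and 1.35 in KHOS, with an adjusted p of 0.491 in limma. Its difference of CDK11 siRNA and untransfected was 1.84 in KHOS, with a z-score of 3.41, and 0.83 in U-2OS. In that KHOS comparison 162 of the 16397 kept probe sets were above the upper bound. The listed genes were not counted against untransfected cells, so nothing is read from this z-score. The 15 kept effectors had medians of -0.01 in U-2OS and 0.25 in KHOS. RPS6KA5 (MSK1), a kinase that p38 and ERK activate, had 6.29 with CDK11 siRNA and 7.52 with nonspecific siRNA in KHOS, a difference of -1.23. Its z-score was -2.74, short of 3 SD, and the level with CDK11 siRNA was below the signal limit, so the size is less certain. In U-2OS it was near background. JUNB had -0.11 in U-2OS and 0.84 in KHOS. The transcription factor JUN, a main substrate of JNK, had -0.03 and 0.31, and ATF2 had 0.34 and -0.21. In the ERK pathway, which runs in parallel, the 6 kept genes had medians of 0.01 in U-2OS and 0.05 in KHOS. MAPK7 (ERK5) had 0.67 in U-2OS and 0.28 in KHOS, MAP2K2 had 0.30 and 0.26, and MAP2K5, which activates ERK5, had -0.04 and -0.16. MAPK7 was above the limit only in KHOS with CDK11 siRNA and MAP2K5 only in untransfected KHOS, so their U-2OS differences are between values below it.

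The pattern of MAP2K4 over the 6 arrays was compared with that of every kept probe set after the mean of each line was taken out, by the root mean square difference in log2 units. The 5 nearest genes were CDC27, a subunit of the anaphase-promoting complex, with a distance of 0.076, MCM3, a subunit of the replicative helicase, with 0.101, DENND11 with 0.136, the cyclin CCNY with 0.144 and KLHL5 with 0.160. CDC27, by 1 of 4 kept probe sets, had 5.84 with CDK11 siRNA, 7.07 with nonspecific siRNA and 7.67 untransfected in U-2OS, and 5.68, 7.05 and 7.29 in KHOS. MCM3 had 9.41, 11.04 and 11.50 in U-2OS and 9.23, 10.78 and 10.90 in KHOS under the same conditions. Of these genes, CCNY and KLHL5 too were near by 1 of several kept probe sets, 4 and 3 in number. With CDK11 siRNA, CDC27 and DENND11 were below the signal limit in both lines, and CCNY and KLHL5 were below it in U-2OS. KLHL5 was below it in U-2OS with nonspecific siRNA too. The distances of these genes, unlike that of MCM3, thus rest partly on low readings and are less certain. The second MAP2K4 probe set was at a distance of 0.186, with 7 other kept probe sets nearer than it, and the nearest probe set of the other kinases was the fourth of MAP3K7, at 0.493. The likeness was taken over 6 arrays and includes the contrast that MAP2K4 was chosen by.

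**Figure D5:**
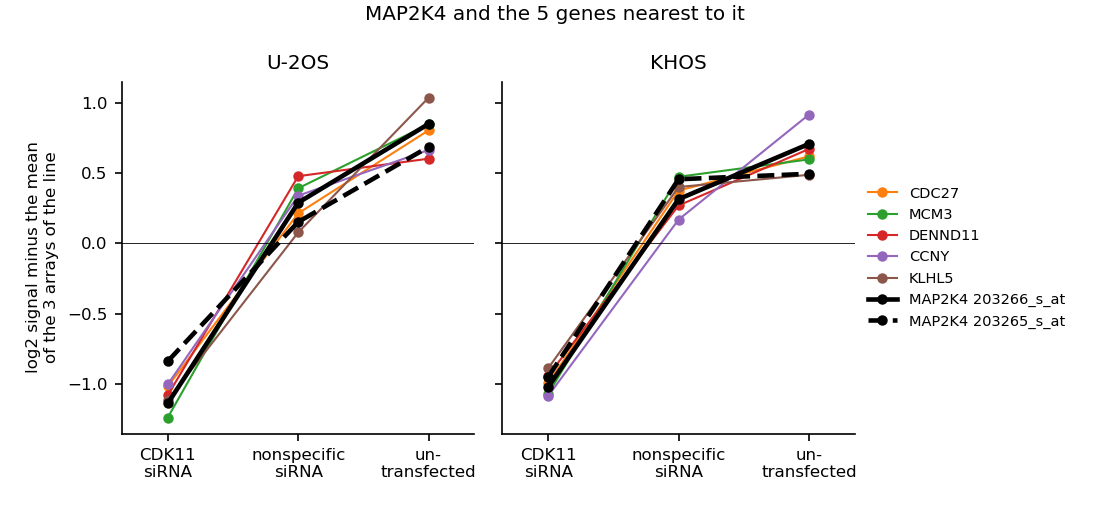
Log2 signal minus the mean of the 3 arrays of the line (y axis) for the 2 MAP2K4 probe sets (black, the second dashed) and the 5 genes nearest to the brighter one, in U-2OS and KHOS by condition (x axis). All lines are lowest with CDK11 siRNA and highest untransfected in both cell lines.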

How the data were processed

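The authors deposited log2 values of 54675 probe sets for 6 arrays (Affymetrix U133 Plus 2.0), using gcrma: background adjustment, quantile normalization across arrays and a summary per probe set. Quantile normalization gives the single probes of the arrays 1 distribution, so a shift of all RNA together would not show. The values per probe set can still differ: the median of kept probe sets was 8.54 in U-2OS and 8.72 in KHOS with nonspecific siRNA. Of the methods' later filter, only the signal part was applied here (highest value above 6.64, the log2 of 100), and present calls were not used here. Differences of CDK11 siRNA and either control within a line were turned into z-scores with the mean and SD of the line's 16397 kept differences, at the methods' threshold of 3. Precision is limited by having 1 array per condition and line.

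Gene symbols came from GEO's platform annotation and were updated by gene ID through the RefSeq table of GRCh38.p14 (41043 of 41097 probe sets with 1 symbol). Another 1801 probe sets had several symbols and 11777 none. Probe sets of MAP2K3 had 2 symbols and were kept as the rule asks for its symbol. All kept probe sets entered a fit in limma 3.58.1 (R 4.3.3) with line and transfection as terms and 2 residual degrees of freedom, two-sided, with Benjamini-Hochberg adjustment over all of them at 0.05. The fit was also run on simulated arrays with known changes in few probe sets and independent noise. Most probe sets differed between the real lines, so that run does not check the fit under the conditions of these data. Python 3.11.15 and pandas 2.3.3 were used.

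The kinases, the pathway list, the markers and the rule for named genes (every kinase of the group, the 3 genes of each pathway role with the largest mean difference, any beyond 3 SD, the 5 nearest to MAP2K4, and CDK11) were chosen with earlier results of these data known. JUN and ATF2 fall outside that rule and were added after their values were seen. Alternatives were another filter, scaling, threshold, control, probe set choice, variance prior and block, and leaving out 1 transfection. Of the 78 listed genes, 69 had a probe set with 1 symbol, and the others were not analysed here. No probe sequences or protein sequences were used.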

Additional observations from a re-analysis of the deposited data

Results flagged for a closer look

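MAP2K3 and MAPK8 differed in sign between the lines in the mean difference of CDK11 siRNA and nonspecific siRNA over their kept probe sets, and this difference was not tested. MAP2K3 had -0.08 in U-2OS and 0.32 in KHOS, a gap of -0.39. MAPK8 had -0.44 in U-2OS and 0.06 in KHOS, a gap of -0.50. Single probe sets did not all follow these means. The MAPK8 probe set 226046_at was below 0 in both lines, at -0.25 in U-2OS and -0.17 in KHOS. For MAP2K3, 215498_s_at was above 0 in both, at 0.14 and 0.28. With 1 array per condition and line, each sign rests on a pair of arrays. Against untransfected cells MAP2K3 had 0.32 in both lines, and MAPK8 had -0.21 in U-2OS and -0.18 in KHOS, so neither had opposite signs with that control.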

How the results depend on the processing

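Counts of probe sets beyond 3 SD are small and moved with most settings. Against nonspecific siRNA the count was 1 in each line. It was 2 in each line with no filter and with the limit required on all 6 arrays, 0 in each at a threshold of 4, 3 in U-2OS and 2 in KHOS at a threshold of 2 or with median and MAD scaling, and 2 in U-2OS and 1 in KHOS with untransfected cells as control. All of these were of MAP2K4, apart from 1 of MAPK8 (229664_at) in U-2OS at the 2 settings with 3. Against untransfected cells, with settings added after the data were seen, the count of 1 in KHOS was 2 under each of these except the threshold of 4, where it was 0, and the 2 in U-2OS fell to 1 at that threshold. The mean MAP2K4 difference of -1.21 in U-2OS was -1.76 with untransfected cells as control, and that of -1.37 in KHOS moved by less than 1 SD of all differences under every setting tried. Between the lines, 10 to 12 probe sets were called under all settings but that of 1 probe set per gene, where 4 of 5 were called, and 10 to 11 when the arrays of 1 transfection were left out. Centring each array moved the median of U-2OS minus KHOS from -0.10 to 0.06 and turned the balance over all kept probe sets to 6238 higher and 5664 lower in U-2OS, against 5343 higher and 6486 lower without it. No call among these kinases changed direction. For nonspecific siRNA against untransfected 0 of these probe sets passed in limma under any setting, and 1 had an unadjusted p under 0.05 (4 with no filter). Of the values for single genes and probe sets, 246 held their side of the threshold or stayed within the spread, 4 passed the threshold in addition, 2 no longer passed it and 2 moved, MAP2K3 to 0.32 and MAP3K1 to 0.02 in U-2OS with untransfected cells as control. The fit between the lines pairs arrays by transfection, and without that block 11 probe sets were called too, but the adjusted p of MAP2K4 203266_s_at was 0.172 in place of 0.000806. With 1 array per condition and line, depth of replication limits every difference within a line.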
